A study of Mus musculus with 2 samples.

Results

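The genes described here are 9 genes of hepatic glucose control: Pck1, G6pc, Tat, Igfbp1, Irs2, Foxo1, Klf15, Pklr and Rgs16. They were chosen by name from the 32285 genes that both libraries list, as genes that move with fasting, feeding, glucagon, glucocorticoids or insulin in the liver. Their levels in these libraries were already known when they were picked, so the levels and the ratios between genotypes are a description and carry no test. All 9 were measured, and all 9 had a mean level of at least 10 CPM (UMIs of the gene per 1000000 UMIs) in hepatocyte-like barcodes.

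Livers of WT and HKO mice were profiled by droplet-based scRNA-Seq, in 2 libraries, 1 per genotype. HKO mice lack miR-33 in hepatocytes: they carry loxP-flanked miR-33 alleles and Cre recombinase under the albumin promoter (the label gives AlbCRE), and the WT mice were their littermates. Both groups were male per the study's methods, were started on CD-HFD (a choline-deficient, high-fat diet) at 8 weeks of age and ate it for 6 months, and each library pooled 3 livers. Hepatocytes were mixed 1:1 with sorted non-parenchymal cells, and each transcript molecule was counted once through its unique molecular identifier (UMI). The methods give a fast of 6 hours at end points, without saying whether this held for these pools.

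With 1 library per genotype there was no spread between animals against which a difference could be set. Genotype, the animals in the pool, their last meal and the preparation cannot be told apart. Therefore no p-value or standard error is given, and every interval is at 95% and covers counting error alone. No row of the tables measured miR-33, so its deletion was not checked here.

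After a meal, insulin drives the liver to take up glucose, break it down and turn it into fat, and glucose metabolites raise the enzymes for this through the transcription factor ChREBP. Between meals, glucagon and glucocorticoids turn on glucose production from amino acids and lactate, and the transcription factor FOXO1, which insulin otherwise keeps out of the nucleus, raises the same program. Hepatocytes divide this work along the lobule: those near the portal vein (periportal) make glucose, and those near the central vein (pericentral) break it down.

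Short stretches of the promoters were searched for the letters of motifs through which such signals can act. They come from RefSeq windows of GRCm38.p6 that run from 250 bases before to 50 bases after each start, and all 9 genes were matched. The motifs searched, on both strands, were CAAAACA (the core of the insulin response sequence, which FOXO factors bind), GTAAACA (a forkhead core), TGACGT (the cyclic AMP response element bound by CREB), CACGTG (an E-box) and CACGGG (1 arm of the paired element through which ChREBP acts). The windows below were picked to show 1 element for each of 6 members, and not every match; searched motifs within them are in capitals on the strand of the gene.
Pck1, chr2:173152970-173152999: ggcctgccccttACGTCAgaggcgagcctc
G6pc, chr11:101367531-101367560: ttttgtgtgccTGTTTTGctattttacgta
Igfbp1, chr11:7197668-7197697: gagctcacaagCAAAACAaacttattttga
Irs2, chr8:11008948-11008977: gagtCACGTGtTGTTTTGctcttagttcag
Pklr, chr3:89136441-89136470: cagcatggacgcCACGGGgcactCCCGTGg
Rgs16, chr1:153740305-153740334: cccgccccgcccCACGGGgataaaagcctt

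The cyclic AMP element of Pck1 began at -91 from the start, the insulin response core of Igfbp1 at -108, that of G6pc at -174 and that of Irs2 at -37. In Pklr, CACGGG at -170 was followed by its mirror image CCCGTG at -159, in the downstream one of its promoters. Of all 32851 promoters of this length, 6.28% held CAAAACA, 3.65% GTAAACA, 7.51% TGACGT, 7.15% CACGTG and 10.1% CACGGG. The matches did not overlap each other. The motifs did not sort the members by class: CACGGG also matched, on either strand, in G6pc (at 37), Igfbp1 (-180), Irs2 (-153) and a further place in Rgs16 (-170), CACGTG matched at 3 places in Klf15 (-228, -172 and -3), and the full windows of Tat and Foxo1 held no searched motif. A match is only a match of letters, and nothing is drawn from its presence or absence about the factor.

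The deleted microRNA has the mature sequence below (RefSeq, chr15:82198127-82198147, plus strand, GRCm38.p6), with its seed, bases 2 to 8, in capitals. A perfect match to that seed was present in the longest annotated 3'UTR of Irs2 (GENCODE M21), and matches to bases 2 to 7 followed by an A were present at 2 places in that of Klf15. They are shown because these messages hold the searched letters, and capitals mark the match. In Klf15 the last A of the match faces base 1 of the microRNA and does not pair with it.
mmu-miR-33-5p: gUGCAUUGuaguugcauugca
Irs2, chr8:10985524-10985553, minus strand: atatttaatggCAATGCAgctgtcttcctg
Klf15, chr6:90474324-90474353, plus strand: ttttgtttttaAATGCAAtaacttattgcc
Klf15, chr6:90474796-90474825, plus strand: gcatgtgcttaAATGCAAgacaaatggagc

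The 3'UTRs of the other 7 members held no such match. Among 6889 genes analysed with an annotated 3'UTR, 1132 (16.4%) held at least 1.

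Barcodes of at least 5000 UMIs with few UMIs from markers of other cells were taken as hepatocyte-like. There were 2034 in WT (median 19405 UMIs) and 1653 in HKO (median 10685 UMIs). The 7 hepatocyte markers in the tables lay between 2660 and 36624 CPM in WT and between 1996 and 27820 in HKO. Markers of 9 other cell classes, summed per class, lay between 1.57 and 130.3 CPM in WT and between 1.15 and 86.1 CPM in HKO, with at most 2 markers of a class at 0. Below 5000 UMIs, 26799 barcodes in WT and 13594 in HKO grouped with the hepatocytes. Those around the commonest depth (2653 UMIs in WT and 833 in HKO) were taken as droplets of free RNA. The files do not mark empty droplets, so shallow or damaged hepatocytes among them cannot be told apart from free RNA, and each value set against free RNA rests on this assumption. At that depth free RNA would make up 10.8% of the UMIs of hepatocyte-like barcodes in WT and 6.61% in HKO. Levels in CPM were not divided by gene length and are compared only within the same gene.

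Of the 9 genes, 5 were at least 1.5-fold lower in the HKO library (G6pc, Tat, Igfbp1, Pklr and Rgs16) and 0 were at least 1.5-fold higher. Over all 7078 genes with a mean of at least 10 CPM, 4.38% were that much lower and 2.40% that much higher. Since the members were picked with these ratios known, nothing is read from the excess. Of the lower genes, G6pc, Tat and Igfbp1 are known to be raised by fasting, and Pklr and Rgs16 are known targets of ChREBP.

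Pck1 (ENSMUSG00000027513, a protein-coding gene at chr2:173153048-173159273, plus strand, GRCm38) encodes the cytosolic PEPCK that commits carbon to glucose production. It had 74083 UMIs in WT, or 1488 CPM, and 36096 in HKO, or 1734 CPM. It was the member that stood higher in HKO, by a ratio of 1.17 (1.15-1.18). That excess was not present in every set of hepatocyte-like barcodes: the ratio was 0.987 (0.947-1.03) in cluster 4 and 1.02 (0.997-1.05) in cluster 5, which are described below.

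G6pc (ENSMUSG00000078650, chr11:101367561-101377903, plus strand) encodes the catalytic subunit of glucose-6-phosphatase, which releases free glucose in the last step of both gluconeogenesis and glycogen breakdown. Its level was 698 CPM in WT and 371 in HKO. The ratio was 0.533 (0.520-0.546), and 1.20% of all genes analysed had a lower one. Thus the first and the last dedicated enzymes of the same pathway lay on opposite sides of equal levels.

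Tat (ENSMUSG00000001670, chr8:109990437-109999803, plus strand) encodes tyrosine aminotransferase, which starts tyrosine breakdown and is a classical target of glucocorticoids and glucagon. Its levels of 677 CPM in WT and 371 CPM in HKO gave a ratio of 0.548 (0.534-0.561). G6pc and Tat therefore had nearly equal ratios, whereas Pck1 did not share them.

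Igfbp1 (ENSMUSG00000020429, chr11:7197782-7202546, plus strand) encodes a secreted protein that binds insulin-like growth factors, and insulin shuts it off within hours. At 103 CPM in WT and 62.3 CPM in HKO, its ratio was 0.603 (0.567-0.641). Its UMIs were unevenly spread over barcodes. With every barcode thinned to 5000 UMIs, the mean was 0.515 UMIs per barcode in WT and 0.280 in HKO, but single barcodes held up to 13 and 10. Pklr, with means of 0.315 and 0.189, reached 3 and 4.

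Irs2 (ENSMUSG00000038894, chr8:10984681-11008458, minus strand) encodes the adaptor that carries the signal of the insulin receptor and is itself raised in fasting. It stood at 39.2 CPM in WT and 38.3 in HKO, and the ratio of 0.977 (0.899-1.06) included 1. Foxo1 (ENSMUSG00000044167, chr3:52268336-52353221, plus strand) encodes the transcription factor itself, whose activity is set mostly by phosphorylation. Its level was 88.8 CPM in WT against 82.2 CPM in HKO, and the ratio was 0.925 (0.874-0.978). Of the other members known as targets of FOXO1, Igfbp1 and G6pc were lower in HKO and Pck1 was higher, and Irs2, itself such a target, had the ratio near 1 given above.

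Klf15 (ENSMUSG00000030087, chr6:90462576-90475238, plus strand) encodes a transcription factor that raises amino acid breakdown for glucose production and is induced by fasting and glucocorticoids. It was measured at 79.0 CPM in WT and 55.8 CPM in HKO, and the ratio of 0.707 (0.662-0.755) fell short of 1.5-fold. Over all hepatocyte-like barcodes neither Irs2 nor Klf15, the members with a searched miR-33-5p match, stood higher in the HKO library. For Irs2 this did not hold throughout: its ratio was 1.28 (1.13-1.46) in the pericentral group described below, and its log2 ratio was 0.14 with barcodes thinned to 5000 UMIs against -0.034 without.

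Pklr (ENSMUSG00000041237, chr3:89136142-89146784, plus strand) encodes liver pyruvate kinase, the last enzyme of glycolysis, and is raised by glucose through ChREBP. From 61.9 CPM in WT and 36.6 CPM in HKO, its ratio was 0.592 (0.546-0.641). Rgs16 (ENSMUSG00000026475, chr1:153740349-153745468, plus strand) encodes a protein that shortens signalling by G protein-coupled receptors and is another ChREBP target in liver. It had 168 CPM in WT and 54.5 in HKO. Its ratio of 0.323 (0.304-0.344) was the lowest of the 9, and 0.127% of all genes analysed had a lower one.

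**Figure D1:**
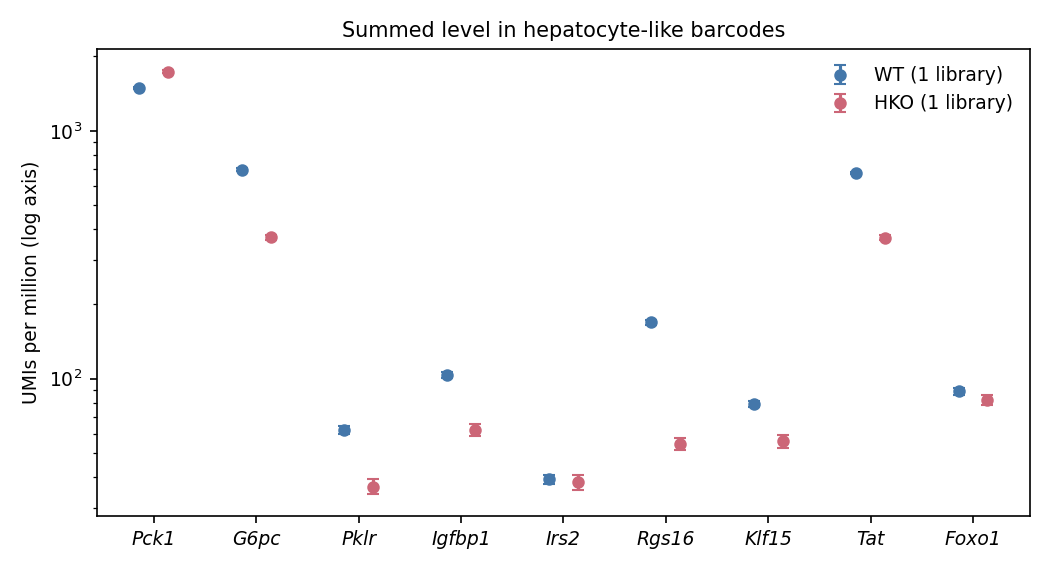
Level of the 9 genes, in CPM on a log axis, in hepatocyte-like barcodes of the WT (blue) and HKO (red) library, 1 library each; bars are 95% Poisson intervals, many smaller than the points. Pck1 is higher in HKO, Irs2 and Foxo1 nearly level, and the other 6 lower.

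The libraries did not draw on the same hepatocyte clusters. Cluster 6 (led by A2ml1, Oat and Slc10a1 among others) held 58.3% of hepatocyte-like barcodes in HKO and 31.7% in WT, cluster 5 (led by nuclear RNAs such as Neat1) 29.3% and 33.9%, and cluster 4 (led by Gstp1 and Mt1) 10.7% and 17.8%. Clusters 0, 2 and 7 were nearly or wholly WT: they held 2.02%, 4.52% and 7.47% of the WT barcodes and 0%, 0% and 0.847% of the HKO barcodes, and cluster 3 held 2.61% and 0.786%. The ratios over all hepatocyte-like barcodes include them. In clusters 6, 5 and 4 the median mitochondrial shares were 13.3%, 29.7% and 0.428% in HKO and 12.3%, 24.6% and 1.09% in WT. The ratios were also taken within each cluster, a step added after the data had been seen.

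At least 1.5-fold lower in HKO were 5 members in cluster 4, 4 in cluster 5 and 6 in cluster 6, and 0 were that much higher in any of these. Of all genes with a mean of at least 10 CPM in the cluster, 30.3% were that much lower and 24.3% that much higher in cluster 4, 7.01% and 5.46% in cluster 5, and 3.16% and 1.31% in cluster 6. In cluster 4 the libraries were thus far apart in many genes. G6pc had the widest range over these 3 clusters: its level was 407 CPM in WT and 82.5 in HKO in cluster 4, a ratio of 0.203 (0.171-0.239). In cluster 6 its ratio was 0.446 (0.431-0.462). In cluster 5 it was 0.712 (0.686-0.739), no longer past 1.5-fold. Rgs16 had ratios of 0.259 (0.203-0.325) in cluster 4, 0.534 (0.483-0.588) in cluster 5 and 0.259 (0.236-0.283) in cluster 6. Igfbp1 reached 0.339 (0.250-0.451) in cluster 4 and lay close to its overall ratio in the others. Klf15 passed 1.5-fold in cluster 6, at 0.645 (0.594-0.700). Pklr and Tat were at least 1.5-fold lower in each of the 3 clusters.

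In barcodes of free RNA depth, 6 members were at least 1.5-fold lower in HKO, as were 16.0% of all 6956 genes with a mean of at least 10 CPM there. The ratio was 0.467 (0.444-0.490) for G6pc, 0.395 (0.379-0.412) for Tat, 0.429 (0.369-0.494) for Igfbp1, 0.552 (0.488-0.622) for Pklr and 0.264 (0.234-0.297) for Rgs16. For Klf15, which fell short of 1.5-fold in hepatocyte-like barcodes, it was 0.538 (0.4845-0.597). Pck1 was below 1 there, at 0.910 (0.893-0.927), in contrast to its ratio in hepatocyte-like barcodes. Subtracting free RNA from the hepatocyte-like barcodes left log2 ratios of 0.27 for Pck1, -0.92 for G6pc and -1.62 for Rgs16, against 0.22, -0.91 and -1.63 without the subtraction.

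**Figure D2:**
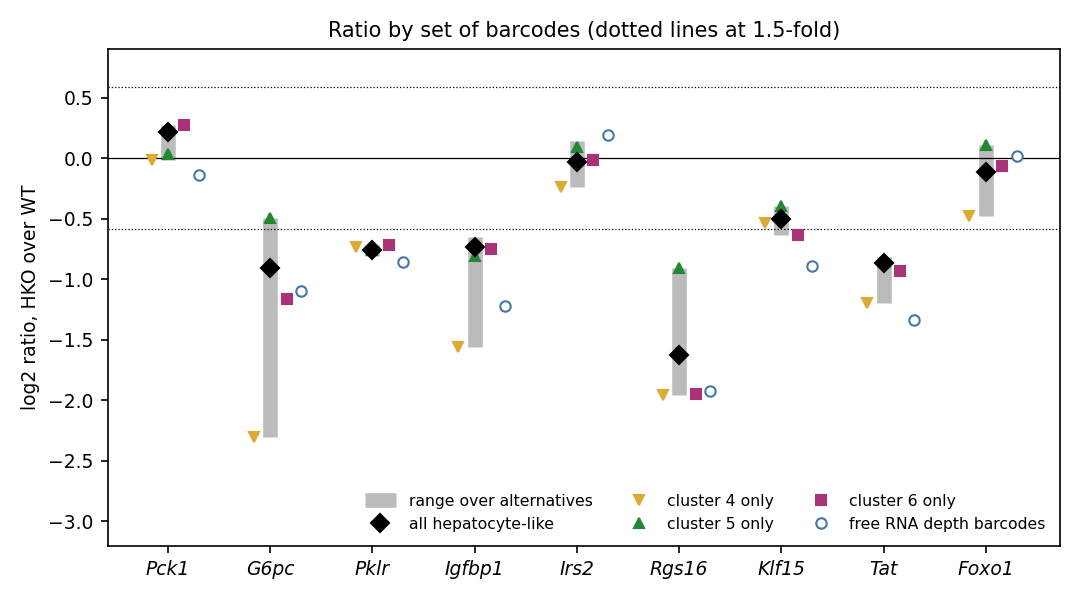
log2 ratio of HKO over WT for each gene in all hepatocyte-like barcodes (black diamonds), in clusters 4, 5 and 6, and at the depth of free RNA (open circles); grey bars span the alternatives tried and dotted lines mark 1.5-fold. Pklr hardly moves, G6pc ranges from -2.30 in cluster 4 to -0.49 in cluster 5, and Pck1 lies on either side of 0.

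Presence per barcode was set beside that in cells that should lack the gene. After thinning every hepatocyte-like barcode to 5000 UMIs, a Tat UMI was seen in 91.7% of WT barcodes (90.4-92.8, exact binomial) and 75.7% of HKO barcodes (73.5-77.7). Without thinning the shares were 99.1% and 89.7%. T and NK-like barcodes, which should lack Tat, held a UMI in 91.4% (WT, median 7002 UMIs) and 23.2% (HKO, median 2795 UMIs). Those were not thinned, so the depths differ. A gene is seen in more barcodes when these are deeper, so the shares cannot be set against each other. In neither library are they read as expression.

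To see whether the pools resembled livers in different nutritional states, the members were set beside lists of other genes of the same programs. These lists were chosen with earlier results of these data known. They are described by counts and medians, and nothing is read from an excess. Over all 7078 genes with a mean of at least 10 CPM, the median log2 ratio was -0.005, with 3593 lower and 3485 higher in HKO. Of these genes, 4.38% were at least 1.5-fold lower and 2.40% at least 1.5-fold higher.

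Feeding-induced genes of insulin, SREBP-1c and ChREBP stood lower in HKO in 13 of 13 measured cases, and 8 passed 1.5-fold. Their median log2 ratio was -0.71. Srebf1, the transcription factor of insulin-driven fat synthesis, went from 155 CPM in WT to 33.0 in HKO (log2 ratio -2.23), and its target Fasn, the fatty acid synthase, from 111 to 29.4 (-1.91). Me1, malic enzyme, was among those nearest to equal levels, at -0.19. The ChREBP targets Pklr and Rgs16, at -0.76 and -1.63, were lower as well.

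Genes of the fasting lists lay on both sides of equal levels. The gluconeogenic list of 12 genes holds enzymes of glucose production and amino acid breakdown, but also regulators, among them a repressor. Of the 12, 7 were lower and 5 higher in HKO, where 3593 of all 7078 genes were lower and 3485 higher. At least 1.5-fold lower were 3 and at least 1.5-fold higher 0, and the median was -0.22. Lpin1, a phosphatidate phosphatase, had a log2 ratio of -1.06 and Bcl6, a repressor known to hold down fasting genes driven by PPARα, -0.88. Gpt2, a mitochondrial alanine aminotransferase, and Ppargc1a, the coactivator PGC-1α, had 0.49 and 0.34. Of 10 ketogenic PPARα targets, 7 were lower, 3 of them past 1.5-fold, and the median was -0.35, though -1.28 within cluster 4. In that list Ehhadh, an enzyme of peroxisomal fat oxidation, had -1.48 and Fgf21, the fasting hormone, -1.13, whereas Cpt1a, which brings fatty acids into mitochondria, had 0.54 and Cyp4a10, a fatty acid hydroxylase, 0.26.

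Glucocorticoid targets were lower in HKO in 7 of 7 measured cases, 3 past 1.5-fold, with a median of -0.56. Dusp1, a MAP kinase phosphatase, had -0.93 and Zbtb16, a zinc finger factor, -0.88, and the nearest to equal were Errfi1 at -0.14 and Fkbp5, the hormone receptor's chaperone partner, at -0.22. Tat and Klf15 lay on the same side. Glycogen and glucose handling genes were lower in 12 of 13 cases, 2 past 1.5-fold, with a median of -0.34: Pygl, the liver glycogen phosphorylase, had -0.87 and Ppp1r3b, a glycogen-targeting phosphatase subunit, -0.74, while Gys2, the liver glycogen synthase, had -0.045.

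Insulin and glucagon signalling genes lay on both sides of equal levels. Of 13, 8 were higher and 5 lower, 0 passed 1.5-fold in either direction, and the median was 0.057, though -0.20 within cluster 4. Toward the ends of that list were Gcgr, the glucagon receptor, at -0.49 and Akt2 at -0.16, against Insr, the insulin receptor, at 0.20. Irs2 and Foxo1 had -0.034 and -0.11.

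Stress of the preparation was followed with immediate early genes, which digestion of the liver can turn on. Of 11 measured, 9 were lower in HKO, 5 of them past 1.5-fold, with a median of -0.58, which was -1.25 within cluster 4 and -0.28 within cluster 5. Zfp36, which destabilizes mRNAs, had -0.99 and Nr4a1, a nuclear receptor that glucagon also induces, -0.95, while Fosb and Egr1 had 0.15 and 0.040. These genes moved with the lower members, and their part in the result was not tested. Alb, with 36624 CPM in WT and 27820 in HKO (log2 ratio -0.40), was lower in HKO as well.

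**Figure D3:**
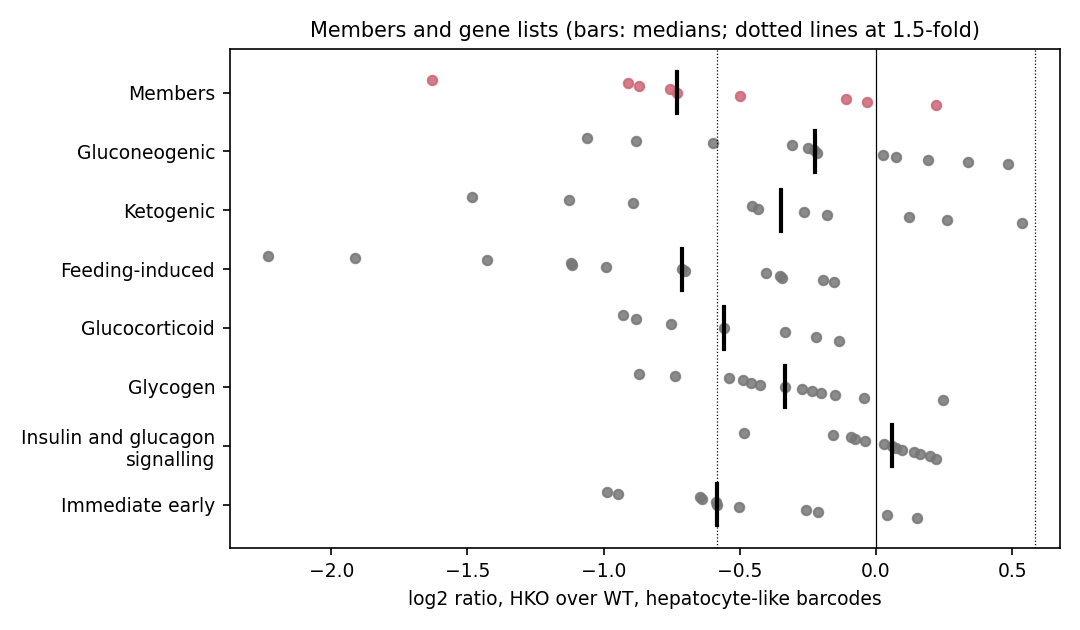
log2 ratio of HKO over WT in hepatocyte-like barcodes for the 9 members (red) and each measured gene of 7 lists (grey, 1 point per gene); black bars are medians and dotted lines mark 1.5-fold. All 13 feeding-induced genes lie left of 0, with a median of -0.71, while the signalling genes straddle 0.

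Position along the lobule was scored per barcode from pericentral and periportal landmark genes, none of them a member. Barcodes of each library were then cut into 3 equal groups, of 678 in WT and 551 in HKO. Landmarks kept out of the score followed it. The periportal gene Cps1, the first enzyme of the urea cycle, had a pericentral over periportal ratio of 0.557 in WT and 0.472 in HKO. The pericentral gene Cyp2c37, a cytochrome P450, had 4.22 in WT and 43.9 in HKO, where the periportal group held 31 of its UMIs. For this gene the end groups thus lay far closer together in WT. Whether the score, free RNA or the tissue made that difference was not tested. It may touch every gradient below, and its part in them was not tested. Median mitochondrial shares also moved along the score, from 16.1% to 7.06% to 8.61% in WT and from 15.8% to 13.6% to 10.2% in HKO. With barcodes of at most 20% mitochondrial UMIs, the counts of zoned members given next were the same.

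Pck1 and Tat were at least 1.5-fold periportal in both libraries, and Igfbp1 at least 1.5-fold pericentral in both. Over all 7078 genes, 2.33% were periportal and 8.94% pericentral by the same rule. Pck1 went from 1864 CPM in the periportal to 1531 in the middle and 1091 in the pericentral group of WT, and from 2337 to 1863 to 958 in HKO. Tat went from 836 to 676 to 526 in WT and from 469.6 to 406 to 230.0 in HKO. Both were thus lower at each step toward the central vein, in either library.

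Igfbp1 was graded the other way, from 82.3 to 91.4 to 134 CPM in WT and from 40.1 to 57.4 to 90.9 in HKO. Its pericentral over periportal ratio was 1.62 (1.52-1.74) in WT and 2.26 (1.97-2.61) in HKO. Pklr was also higher near the central vein, the glycolytic end, with a ratio of 1.47 (1.34-1.61) in WT and 2.07 (1.73-2.49) in HKO. Rgs16 had 1.40 (1.33-1.48) and 1.77 (1.54-2.04). The intervals of Klf15 and Foxo1 included 1 with this score: their ratios were 0.933 (0.865-1.01) and 1.02 (0.954-1.10) in WT, and 0.940 (0.817-1.08) and 1.00 (0.889-1.13) in HKO. For Foxo1 this rested on the score and the barcodes used. Scored on Cyp2e1 and Cyp2f2 alone, its log2 zone ratio was 0.48 in WT and 0.55 in HKO. Within cluster 5 it was 0.43 and 0.77, and within cluster 6 it was 0.50 and -0.048. The log2 zone ratio of Klf15 within cluster 5 was -0.38 in WT and 0.24 in HKO. Over 5 equal groups of the main score, Foxo1 in WT was at 75.8 CPM (70.7-81.2) in group 4 and 102 (95.8-108) in group 5.

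G6pc and Irs2 had different profiles in the 2 libraries. G6pc was periportal in WT, with 937, 600.2 and 553 CPM from the periportal to the pericentral group. In HKO the end groups were close and the middle lower, with 389, 342 and 381, and its pericentral over periportal ratio was 0.980 (0.929-1.03) against 0.591 (0.576-0.606) in WT. Over 5 equal groups, HKO had 396.5 CPM (378-416) in group 2, 315 (298-334) in group 4 and 403 (384-422) in group 5. Irs2 had close end groups in WT, at a ratio of 0.933 (0.840-1.04), and was pericentral in HKO, at 1.68 (1.42-2.00). Over 5 equal groups, WT had 42.5 CPM (38.4-47.0) in group 2, 30.04 (26.8-33.5) in group 4 and 45.9 (41.9-50.1) in group 5. Within cluster 6 the log2 zone ratio of G6pc was -0.83 in WT and -0.060 in HKO, and within cluster 5 it was -0.31 and 0.40. For Irs2 these values were 0.17 and 0.46 in cluster 6 and 0.35 and 1.52 in cluster 5. Scored on Cyp2e1 and Cyp2f2 alone, the log2 zone ratio was -0.47 in WT and 0.24 in HKO for G6pc, and 0.30 and 0.95 for Irs2. Thinned to 5000 UMIs, it was -0.72 and -0.23 for G6pc and 0.059 and 0.70 for Irs2.

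The ratio between genotypes was taken in each zone group over all hepatocyte-like barcodes. For Pck1 it was 1.25 (1.23-1.28) in the periportal, 1.22 (1.19-1.24) in the middle and 0.878 (0.854-0.903) in the pericentral group. For G6pc it was 0.415 (0.399-0.432), 0.570 (0.544-0.597) and 0.689 (0.659-0.719), so the libraries were furthest apart near the portal vein. For Irs2 it was 0.713 (0.611-0.829), 0.975 (0.830-1.14) and 1.28 (1.13-1.46), and the level ratio over all barcodes hid a lower periportal and a higher pericentral value. For Tat it was lowest near the central vein, at 0.438 (0.415-0.462) against 0.562 (0.541-0.583) near the portal vein. For Pck1 and Tat this change along the lobule was not kept in cluster 5 and was smaller in cluster 6. The log2 zone ratio of Pck1 was -0.77 in WT and -1.29 in HKO over all barcodes, but -0.52 and -0.41 in cluster 5, in the other order, and -1.35 and -1.59 in cluster 6. That of Tat was -0.67 and -1.03 over all barcodes, against -0.75 and -0.71 in cluster 5 and -0.98 and -1.06 in cluster 6. For Irs2 the libraries kept their order, with -0.099 and 0.75 over all barcodes and 0.35 and 1.52 in cluster 5. In cluster 6 they were closer, at 0.17 and 0.46. Rgs16 stayed at or under 0.399 and Pklr at or under 0.723 in all 3 groups. Igfbp1 had 0.49 in the periportal, 0.63 in the middle and 0.68 in the pericentral group. In the pericentral group G6pc, Pklr and Igfbp1 thus fell short of 1.5-fold, while Rgs16 and Tat were past it.

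The zone calls were sensitive to how the score was made. With barcodes thinned to 5000 UMIs, 0 members passed 1.5-fold in both libraries in either direction, since the WT log2 ratios shrank to -0.56 for Pck1, -0.44 for Tat and 0.52 for Igfbp1. Scored on Cyp2e1 and Cyp2f2 alone, Igfbp1 stayed past 1.5-fold, and Pck1 and Tat had WT log2 ratios of -0.55 and -0.54.

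**Figure D4:**
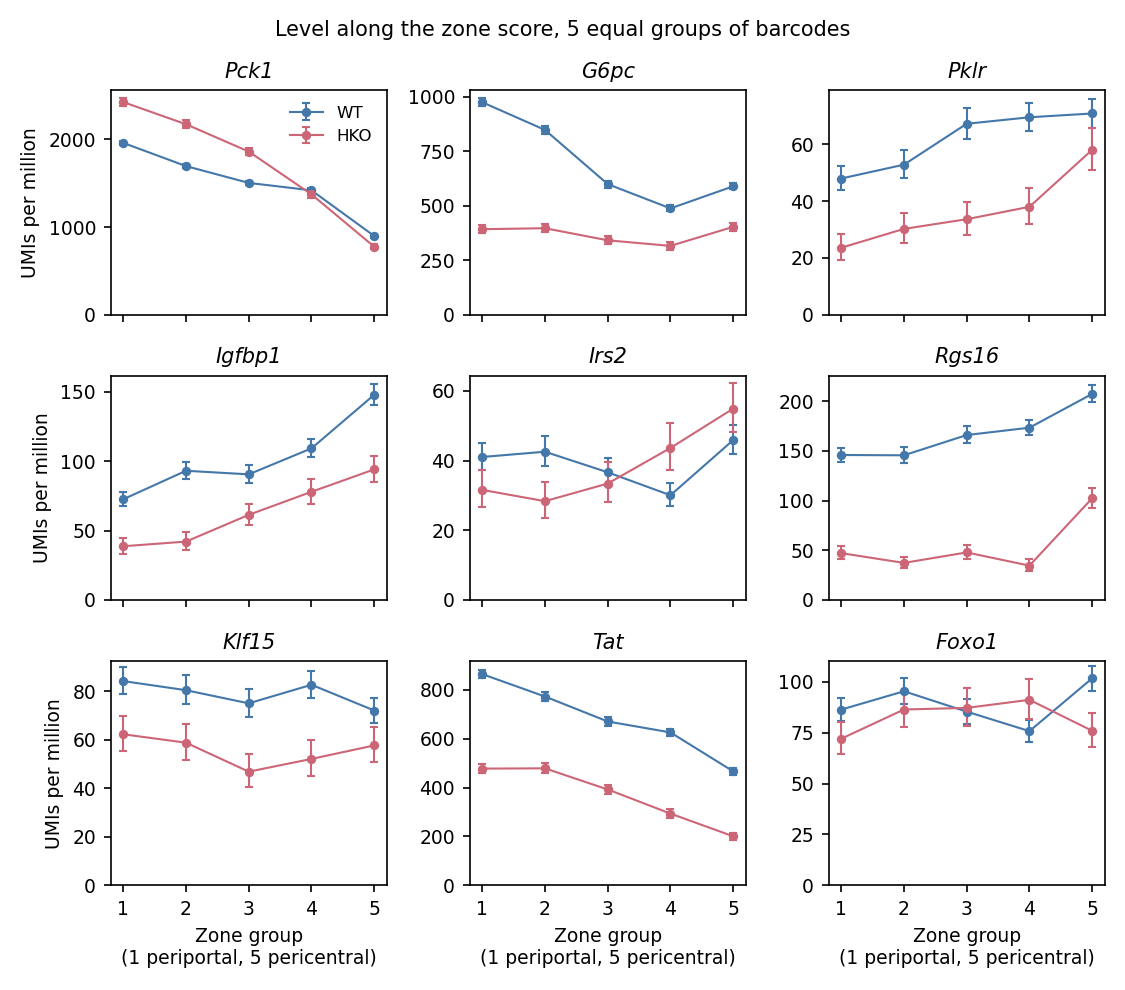
Level of each gene in CPM over 5 equal groups of hepatocyte-like barcodes along the zone score (group 1 periportal, group 5 pericentral), in WT (blue) and HKO (red), with 95% Poisson intervals; each axis starts at 0. Pck1 and Tat are lower toward group 5, Igfbp1 and Pklr higher, and G6pc goes from 975 to 589 in WT but from 392 to 403 in HKO.

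Outside hepatocytes, only counts above those expected from free RNA can be read as expression. The expected count was the class's Alb count times the gene's ratio to Alb in barcodes of free RNA depth. Foxo1 stood above free RNA in 4 of 5 named classes in WT and 5 of 5 in HKO, and Irs2 in 3 and 4. For the other 7 members, 8 of 70 combinations of gene, class and library stood above it, by at most 1.99-fold, and Pklr, Igfbp1 and Tat did so in none. Over the 7078 genes and the same 5 classes, 54.3% of combinations in WT and 69.5% in HKO stood above free RNA by this rule, so that being above it was common. Leaving out, for each gene, the barcode with its most UMIs, a step added after seeing the data, left the counts of Foxo1 at 4 and 5, those of Irs2 at 3 and 3, and those of the other 7 members at 0 in WT and 4 in HKO.

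Foxo1, which also keeps naive lymphocytes quiescent, had 119 UMIs in T and NK-like barcodes of WT, where free RNA would give 20.3, and 271 in HKO, where it would give 24.3. In CPM, these were 159 and 199. B and plasma-like barcodes had 244 in WT and 274 in HKO, and endothelial-like barcodes 177 and 179, all above the hepatocyte levels given before. Macrophage-like barcodes had 14 UMIs in WT against 18.0 expected.

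Irs2 was most abundant in B and plasma-like barcodes, with 21 UMIs in WT (87.0 CPM, 36 barcodes) and 83 in HKO (172 CPM, 204 barcodes). Free RNA would give 2.17 and 3.96. T and NK-like barcodes had 21 UMIs in WT and 43 in HKO, or 28.1 and 31.6 CPM. Endothelial-like barcodes had 4 UMIs in WT against 4.18 expected and 8 in HKO against 3.44. Without the highest barcode, 6 against 3.42 were left in HKO, not above free RNA. For the fasting enzymes Pck1, G6pc and Tat, T and NK-like barcodes of WT held 597, 180 and 281 UMIs where 586, 158 and 257 were expected. In HKO, Pck1 stood above free RNA in 3 of 5 classes, with 750 UMIs against 631 in T and NK-like, 307 against 257 in endothelial-like and 218 against 189.5 in monocyte and dendritic-like barcodes. G6pc did so in T and NK-like barcodes of HKO (109 against 87.3), in B and plasma-like barcodes of HKO (61 against 40.9) and in monocyte and dendritic-like barcodes of WT (75 against 56.9). In the last of these 22.7% of the UMIs lay in a single barcode, and 58 against 54.8 were left without it, not above free RNA. Without their highest barcode, G6pc in T and NK-like (102 against 87.1) and Pck1 in monocyte and dendritic-like barcodes of HKO (203 against 181) were not above it either.

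**Figure D5:**
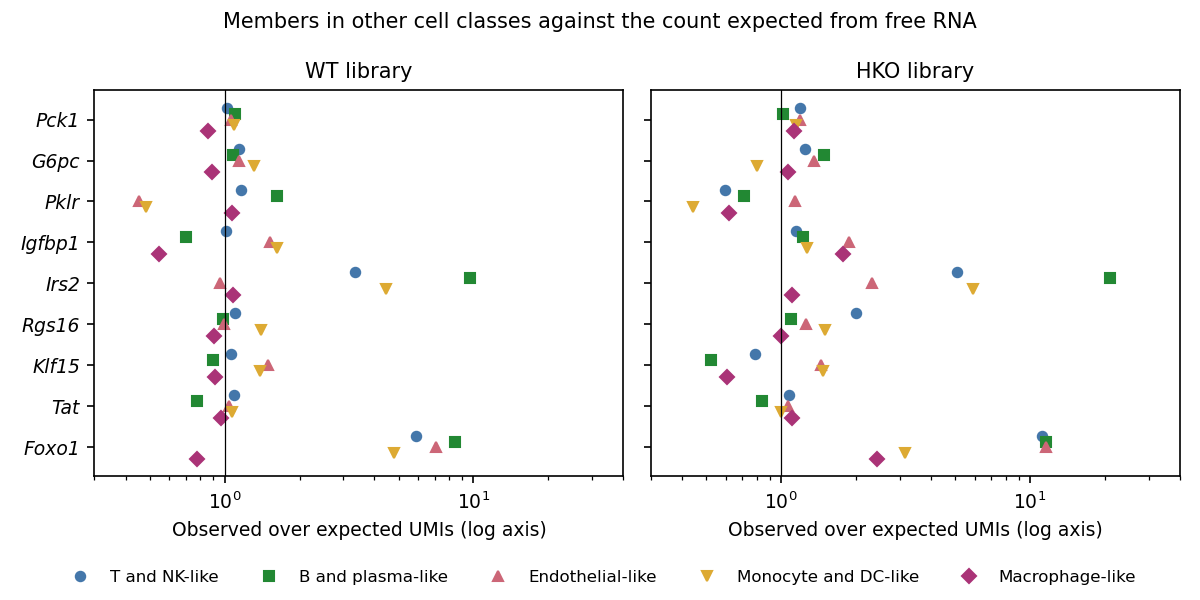
Observed UMIs of each gene divided by the count expected from free RNA (log axis, line at 1) in 5 non-hepatocyte classes of the WT (left) and HKO (right) library. Irs2 and Foxo1 stand to the right, up to 83 UMIs against 3.96 for Irs2 in B and plasma-like barcodes of HKO, and most other points lie nearer 1.

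The genes with the most similar pattern were sought among 2625 genes with a mean of at least 50 CPM, by Pearson's r of log2(CPM + 1) over 10 points, the 5 zone groups of each library. The points of 1 library share its depth and free RNA, so r is a description. Pck1 was most like Slc38a4 (0.986) and Gls2 (0.982), an amino acid transporter and the liver glutaminase, though Gls2 was part of the zone score. G6pc was most like Slc25a25 (0.961) and Slc27a2 (0.945), and Tat like Creb3l3 (0.995), a transcription factor of the fasted liver, and Mug1 (0.991). Igfbp1 was most like Sec11a (0.991) and Cs (0.989), and Irs2 like Eif3a (0.941) and Fermt2 (0.913). Klf15 was most like Ppp1r3c (0.963), a glycogen-targeting subunit, and Dhrs3 (0.946), and Foxo1 like Il1r1 (0.961) and Exoc4 (0.919). Pklr was most like Pim3 (0.982) and Actg1 (0.981), and Rgs16 like Ces3a (0.984) and Fasn (0.983), the fatty acid synthase of the feeding list.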

How the data were processed

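The authors deposited 1 table of UMI counts per gene and barcode for each library, whole numbers without normalization, with 30078 barcodes and 130451427 UMIs in WT and 20000 barcodes and 52563185 UMIs in HKO. The header of the tables names Cell Ranger 7.1.0, and the submitters' processing notes name mm10, R 3.0 and Seurat 3. The choice of barcodes and the annotation were not given in the sources used here. Barcodes shared by the libraries could not be counted, since names were at hand for HKO alone (not analysed here). The members and lists were chosen with earlier results of these data known.

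Barcodes with at least 500 UMIs, 300 genes and at most 50% mitochondrial UMIs were clustered over both libraries without integration (2000 variable genes, 30 components, 15 neighbours, Leiden resolution 1.0; scanpy 1.11.5, igraph 0.11.9, Python 3.11.15). Clusters with at least 3 markers of a non-hepatocyte class were clustered again, and sub-clusters were named from fixed markers. The others were hepatocyte-like at 5000 or more UMIs and under 0.2% of UMIs from non-hepatocyte markers, which left out 39 WT and 28 HKO barcodes as mixed, and of free RNA depth below that. No doublet caller was run, so doublets of 2 hepatocytes stay in. Of the hepatocyte-like barcodes, 19.0% in WT and 19.4% in HKO lay within 0.1 SD of a cut of the zone score.

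UMIs were summed per library and divided by the total. Levels have exact Poisson intervals, and ratios, HKO over WT, exact intervals that condition on the sum of both counts (scipy 1.17.1), which were checked on simulated counts. UMI counting removes PCR copies, so intervals cover the counting of molecules in these pools and nothing between animals. Named besides the members were the 2 highest and 2 lowest ratios of each list, the 2 genes most alike each member, and Alb; some genes that this rule names are not reported here. Leading genes of clusters and landmarks of the zone were named after their values were seen. Alternatives changed the depth minimum, thinning, weights, free RNA, mixed barcodes, mitochondrial share, scaling, expression minimum, zone score and single barcodes.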

Additional observations from a re-analysis of the deposited data

How the results depend on the processing

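The count of members at least 1.5-fold lower in HKO stayed at 5 under the alternatives fixed at the start and was 5, 4 and 6 within clusters 4, 5 and 6, an alternative chosen after seeing the data. The count at least 1.5-fold higher was 0 throughout. No member that was past 1.5-fold changed direction under any of the 13 alternatives for its ratio. Medians of the gluconeogenic and feeding lists ranged from -0.245 to -0.054 and from -0.921 to -0.657. The members at least 1.5-fold pericentral in both libraries numbered 1, but 0 with barcodes thinned to 5000 UMIs and 2 in cluster 5. The members at least 1.5-fold periportal in both numbered 2, but 0 when thinned, 0 with a score from Cyp2e1 and Cyp2f2 alone and 1 in cluster 5. The cause was not tested. Within cluster 4 the medians of ketogenic, immediate early, glucocorticoid, glycogen and signalling genes moved from -0.35, -0.58, -0.56, -0.34 and 0.057 to -1.28, -1.25, -0.83, -0.69 and -0.20. Within cluster 5 that of immediate early genes moved to -0.28.

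Depth limits the scarcer members: Irs2 rested on 797 UMIs in HKO and Pklr on 763. No paired analysis was possible because each genotype had 1 library, and leaving out a replicate was not possible either.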

Other observations

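Igfbp1 was met once far outside hepatocytes. The 24 cholangiocyte-like barcodes of HKO held 191 Igfbp1 UMIs where free RNA would give 2.03, and 100% of them came from a single barcode. In the same class Irs2 gave 23 UMIs against 1.64 expected, with a UMI in 50.0% of barcodes. WT had 7 cholangiocyte-like barcodes, which were not analysed further.

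At equal depth of 5000 UMIs, most pairs of members were seen together about as often as their separate shares predict. Irs2 and Foxo1 were seen together in 124 barcodes of WT where 87.7 were predicted and in 94 of HKO where 71.2 were predicted. Among clusters 4, 5 and 6, where levels were taken, both were higher in cluster 5 than in cluster 6, at 72.9 and 167 CPM in WT and 77.5 and 179 in HKO, against 28.8 and 59.5 in WT and 28.6 and 56.9 in HKO in cluster 6. Irs2 and Rgs16 were seen together in 77 barcodes of HKO where 48.0 were predicted and in 150 of WT where 140.2 were predicted. For Igfbp1 and Irs2 the counts were 125 against 99.2 in WT and 59 against 43.7 in HKO. In HKO, Igfbp1 and Rgs16 had 84 against 62.2, whereas Pklr and Foxo1 had fewer than predicted, 62 against 82.1. In sparse counts such departures are descriptions of these barcodes.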
